A study of Rattus norvegicus with 8 samples.

Results

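The genes described here make the machinery that takes new proteins into the endoplasmic reticulum (ER), folds them and passes them on for secretion. The set was given as 36 gene symbols: the ER forms of the HSP70 and HSP90 chaperones with their helpers, the lectin chaperones, the disulfide isomerases, the sensors of ER stress, the enzymes of ER-associated degradation, the translocation channel, signal peptidase and the oligosaccharyltransferase. A symbol was matched to a probe by an equal gene name in the scanner files. This found 35 of the 36 genes, out of 26204 distinct gene names on the array, and Derl2 is not analysed here. Of the 35, 29 had 1 probe and 6 had 2 probes, and for those 6 the probe with the higher mean over all arrays was used.

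The samples were whole ovaries of immature female rats, whose strain the labels do not name. Both groups were injected at 26 days of age, and the ovaries were taken 48 h later, at 28 days. One group received 50 IU of PMSG (pregnant mare serum gonadotropin), dissolved in albumin phosphate buffer, and the control group the same volume, 0.2 ml, of this vehicle alone, injected under the skin. The titles of the control samples call them a reference without treatment. PMSG is a hormone preparation with mainly follicle-stimulating and some luteinising activity, used to drive the growth of ovarian follicles. RNA of 4 samples per group was labelled with Cy3 and hybridised to 8 one-colour arrays with 60-base probes. The labels number the arrays of a group as replicates 1 to 4 and do not say whether each held the RNA of 1 rat, so the p-values measure the spread between these arrays.

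Proteins that are secreted or sit in membranes enter the ER as they are made. Signal peptidase removes the leader, the oligosaccharyltransferase attaches sugar chains, and chaperones and disulfide isomerases help the chain to fold. Chains that do not fold are moved back to the cytosol and degraded. When unfolded chains accumulate, the sensors Ern1 (IRE1), Atf6 and Eif2ak3 (PERK) start the unfolded protein response, which raises the transcription of many of these same genes. In the ovary, follicle growth involves secretion of inhibin, anti-Müllerian hormone, follicular fluid proteins and the zona pellucida.

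The 8 arrays lay on 1 slide and carried 1 scan time, and none had a saturated spot among its 58717 gene spots. The signal at the 75th percentile ran from 1002 to 1103 in the control arrays and from 769 to 1082 in the PMSG arrays, with PMSG array 3 the lowest. Correlations of log2 signal between arrays were 0.987 to 0.993 within the control group, 0.977 to 0.991 within the PMSG group and 0.960 to 0.972 between groups. Genes that follow gonadotropins went against what the hormone is generally known for. Star, the cholesterol carrier of steroid synthesis, fell by 2.75 on the log2 scale in the arrays labelled PMSG (limma, adjusted p = 0.00541), Cyp11a1, the first steroidogenic enzyme, fell by 3.36 (adjusted p = 2.32e-04), and the luteinising hormone receptor Lhcgr fell by 1.93 (adjusted p = 0.00114). Amh, made by granulosa cells of small growing follicles, rose by 3.03 (adjusted p = 2.61e-04). Every direction below is therefore that of the arrays labelled PMSG against the arrays labelled control, and rests on those labels.

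Of the 35 genes, 19 fell in the arrays labelled PMSG and 0 rose in limma's test. The count that rose was also 0 at an unadjusted p under 0.05. All 35 were above background on all 8 arrays. Over the whole array the comparison called 8658 of 25303 tested probes (34.2%), 16.6% lower and 17.6% higher, against 54.3% of these 35 genes. A call means an adjusted p under 0.05 in limma's moderated test, with Benjamini-Hochberg adjustment over all 25303 probes. The median difference of the 35 genes was -0.42 on the log2 scale, against 0.11 over all tested probes. Negative differences were seen in 30 of the 35 genes and in 42% of all tested probes. In 24 of the 35 genes every PMSG array lay below every control array. Over all tested probes such a complete downward separation was seen in 18.6%. Since the ovaries were measured whole, fewer cells of a type and less RNA per cell cannot be told apart.

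The arrays were alike in this. Values here and below are log2 signals relative to the array's own 75th percentile, and a gene's deviation is its value minus its mean over the control arrays. The median deviation of the 35 genes was 0.04, 0.01, -0.06 and 0.03 in control arrays 1 to 4, and -0.42, -0.32, -0.38 and -0.54 in PMSG arrays 1 to 4. In those PMSG arrays 28, 27, 27 and 31 of the 35 genes lay below all 4 control arrays. The median deviation over all tested probes was 0.19, 0.08 and 0.22 in PMSG arrays 1, 2 and 3, and -0.12 in PMSG array 4. The lower medians of the 35 genes were thus present in every PMSG array, on arrays whose overall medians lay on either side of 0.

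**Figure D1:**
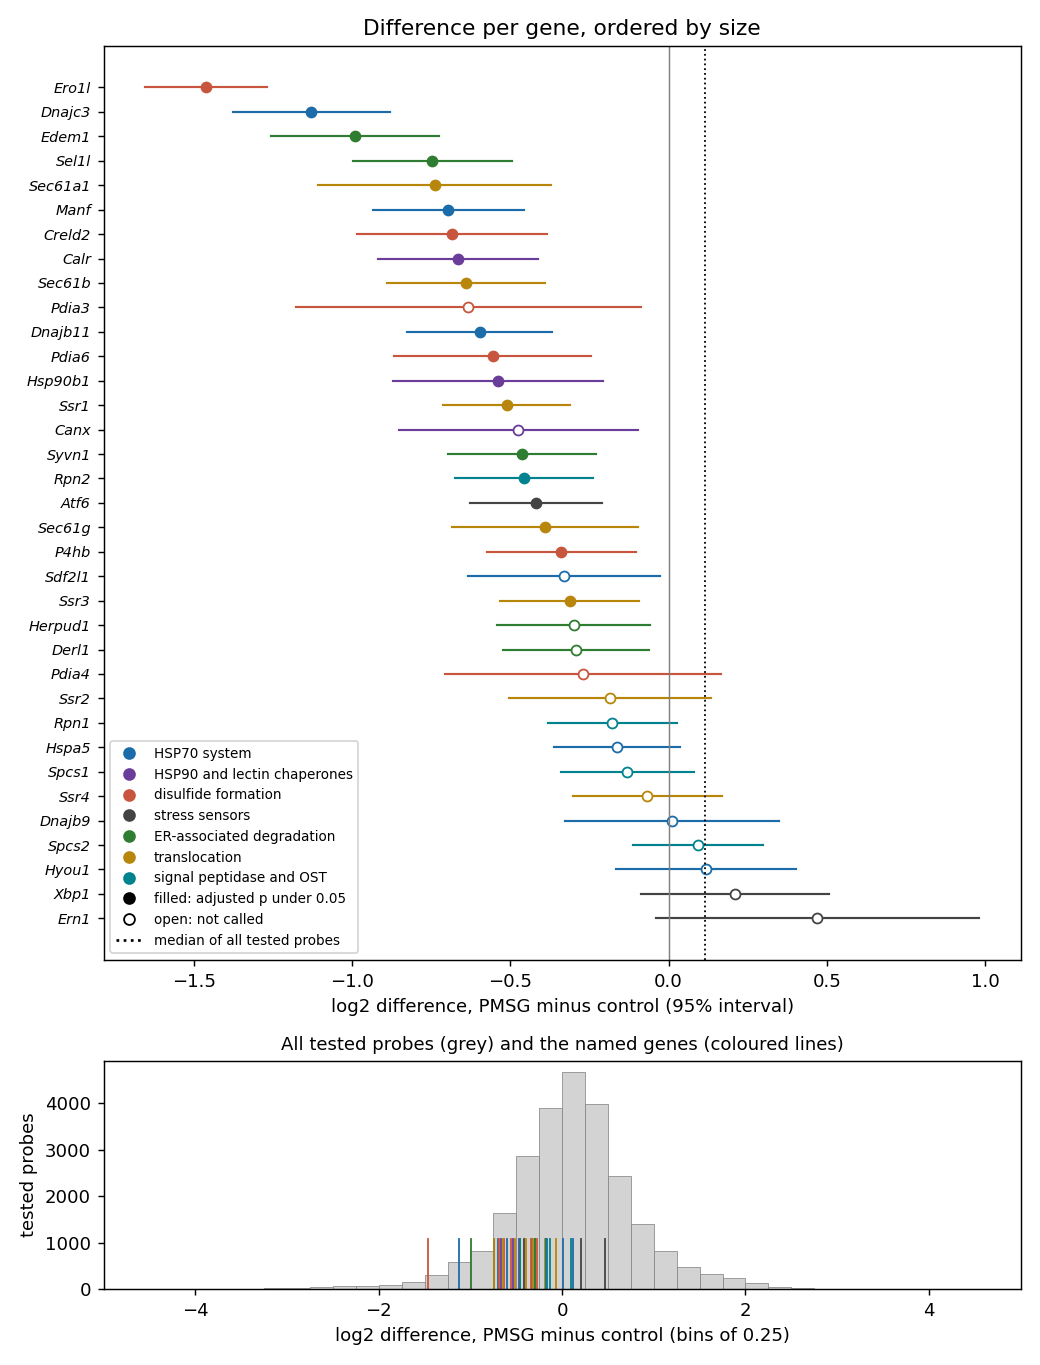
Upper panel: log2 difference (PMSG minus control) of each of the 35 ER genes in order of size and coloured by role, with its 95% interval from limma, filled where called. Lower panel: the number of all 25303 tested probes in each bin of difference, with the ER genes as coloured lines. The 19 genes that fell lie between -1.46 and -0.31, and the median of all probes is at 0.11.

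By stage of the pathway, 5 of 7 translocation genes were lower, including Sec61g and Ssr3, whose calls depended on single arrays as given below. The disulfide enzymes had 4 of 6 lower, the HSP70 system 3 of 7, ER-associated degradation 3 of 5, the HSP90 and lectin chaperones 2 of 3, the sensors 1 of 3, and signal peptidase with the oligosaccharyltransferase 1 of 4. The median differences were -0.39, -0.59, -0.33, -0.46, -0.54, 0.21 and -0.15 in that order. The calls of P4hb (disulfide enzymes) and Hsp90b1 (HSP90 and lectin chaperones) also depended on single arrays. That of Atf6 (sensors) was lost with the mean of its probes.

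Many of these genes carry a known promoter element through which the unfolded protein response acts, and the elements are shown here because genes that fell and genes that did not pass the test both hold them. The ER stress response element (ERSE) is CCAAT, 9 bases of any kind, then CCACG. RefSeq promoters of assembly GRCr8, from 250 bases before to 50 after the start, were found for 28 of the 36 genes by symbol. Those of Manf, Pdia3, Pdia6, Ero1l, Atf6, Ern1, Derl1 and Sec61a1 were not in the table. An ERSE on either strand lay in 7 of the 28 genes (25%), against 21 of all 27457 genes with a promoter (0.0765%), which include these 7. The set holds known genes of the unfolded protein response, so the contrast in shares, here and below, was built into the choice of genes. Each is printed from 5′ to 3′ on the strand that carries it, with the element in capitals and up to 20 bases on each side. Its position is given in bases from the transcription start, negative before it.
Hspa5, from -43 to -25, chr3:38452953-38453011, plus strand: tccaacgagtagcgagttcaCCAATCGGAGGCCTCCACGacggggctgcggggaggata
Hsp90b1, from -176 to -158, chr7:23012431-23012489, minus strand: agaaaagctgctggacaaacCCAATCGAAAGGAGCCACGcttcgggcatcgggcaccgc
Hsp90b1, from -72 to -54, chr7:23012327-23012385, plus strand: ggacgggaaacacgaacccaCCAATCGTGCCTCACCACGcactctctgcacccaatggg
Calr, from -232 to -214, chr19:40213117-40213173, minus strand: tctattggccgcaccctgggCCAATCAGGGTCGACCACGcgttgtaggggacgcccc
Canx, from -230 to -212, chr10:35158049-35158107, minus strand: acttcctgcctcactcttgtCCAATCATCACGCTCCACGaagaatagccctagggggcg
Dnajc3, from -133 to -115, chr15:102432514-102432572, plus strand: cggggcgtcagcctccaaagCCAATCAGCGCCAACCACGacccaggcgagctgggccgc
Creld2, from -145 to -127, chr7:121789219-121789277, minus strand: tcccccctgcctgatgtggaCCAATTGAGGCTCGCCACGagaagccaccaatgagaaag
Xbp1, from -65 to -47, chr14:84604538-84604596, plus strand: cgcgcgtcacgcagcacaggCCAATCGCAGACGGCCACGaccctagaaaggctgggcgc

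Hsp90b1 has the element on both strands, at different positions. Of the 7 genes with an ERSE, 4 fell in the PMSG arrays (Hsp90b1, Calr, Dnajc3 and Creld2) and 3 did not pass the test (Hspa5, Canx and Xbp1). The shorter ERSE-II, ATTGG, 1 base of any kind, then CCACG, lay in 3 of the 28 genes (10.7%) against 17 of all 27457 genes (0.0619%). Dnajb11 has it as ATTGGCCCACG, ending on the first transcribed base, Herpud1 as ATTGGGCCACG, and Hyou1 as both of these on the opposite strand. Of these 3 genes Dnajb11 fell, and Hyou1 and Herpud1 did not pass the test. The core of the unfolded protein response element, TGACGTG, lay in Hspa5, Hyou1 and Ssr4, 3 of 28 genes against 555 of 27457 (2.02%), and in Hyou1 it overlaps 1 of the ERSE-II matches. None of these 3 genes passed the test. In the related lists described below, the same core lay in 12 of the 105 genes with a promoter (11.4%), and 8 of those 12 genes fell and 4 were not called. With or without the core, 57 of the 115 tested genes of those lists fell, and 16.6% of all tested probes were lower.

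With either ERSE form, 5 of 10 genes fell, with a median difference of -0.51. With neither, 9 of the 17 measured genes fell, with a median of -0.33. Outside the set, the tested genes with an ERSE numbered 10, Derl3 among them, of which 2 fell and 3 rose, with a median of 0.03. Those with an ERSE-II numbered 9, of which 2 fell and 2 rose, with a median of -0.06. For comparison, 19 of all 35 genes of the set fell, and of all tested probes 16.6% were lower and 17.6% higher. A match is a description of letters in this window, and the difference between these counts was not tested.

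**Figure D2:**
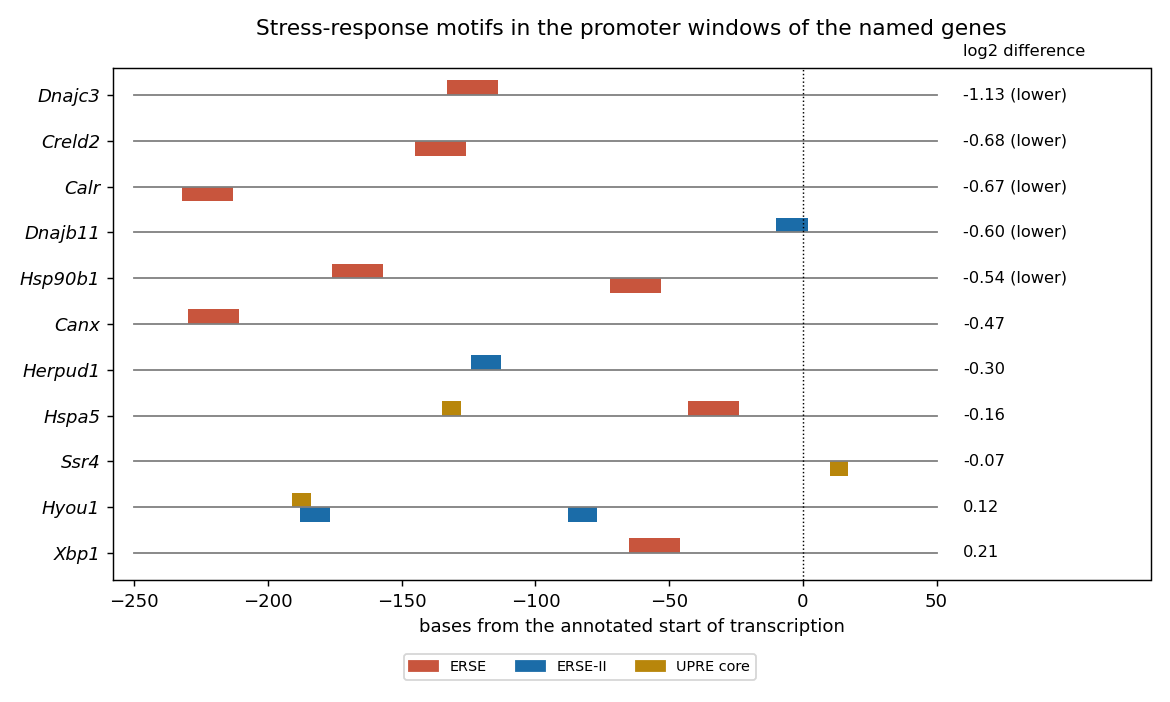
Positions of the ERSE, ERSE-II and UPRE core matches in the promoters of the ER genes that hold one, in bases from the transcription start (bars above the line for the strand of the gene, below it for the opposite strand), with each gene's log2 difference (PMSG minus control) printed at the right. Of the 7 genes with an ERSE, the 4 that fell and the 3 that did not pass the test both include genes with the element near the start (Hsp90b1 against Hspa5 and Xbp1) and far from it (Calr against Canx).

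The gene that fell farthest was Ero1l, the oxidase that passes disulfide-bond oxidising power to protein disulfide isomerase. Its probe, for transcript NM_138528, is placed by the files on chromosome 15, from 21170400 to 21171722 of build rn4. The log2 signals were 1.09, 0.93, 1.04 and 1.10 in control arrays 1 to 4. They were -0.39, -0.42, -0.43 and -0.44 in PMSG arrays 1 to 4. All 4 PMSG arrays lay within a very narrow range far below the control arrays. The means were 1.04 ± 0.0766 and -0.42 ± 0.0249 (SD, n = 4 each), a difference of -1.46 (SE 0.0834, 95% interval -1.65 to -1.27), or a signal 2.75-fold lower (limma, adjusted p = 3.74e-05).

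Among its partners, the protein disulfide isomerases that Ero1l oxidises or that act beside it, Pdia6 had 4.88, 4.81, 4.68 and 4.96 in the control arrays. Its PMSG arrays had 4.10, 4.61, 4.26 and 4.14, all below the control arrays, with PMSG array 2 nearest to them. The difference was -0.56 (SE 0.135, adjusted p = 0.0145). P4hb, the classical protein disulfide isomerase and a subunit of collagen prolyl 4-hydroxylase, fell from 4.58 ± 0.0740 to 4.24 ± 0.142 (SD, n = 4), to 79.1% of the control signal (adjusted p = 0.0344). This call was lost when any 1 control array was left out (adjusted p 0.0506 to 0.0943), and without PMSG array 1, 2 or 3 (0.0838, 0.0569 and 0.0651). Creld2, an ER-resident protein of the stress response with an ERSE, had 1.49, 1.56, 1.39 and 1.69 in the control arrays and 0.93, 1.04, 0.87 and 0.54 in the PMSG arrays, with no overlap. It fell to 62.2% of the control signal (difference -0.68, SE 0.131, adjusted p = 0.00485).

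Pdia3 (ERp57), the isomerase that works with calnexin and calreticulin on glycoproteins, was 1.24, 1.33, 1.35 and 1.62 in the control arrays and 0.93, 1.06, 1.01 and 0.01 in the PMSG arrays. PMSG array 4 stood far below the other PMSG arrays. The difference of -0.63 (SE 0.238) did not pass the test (adjusted p = 0.0724), and without PMSG array 4 it was -0.38 with an adjusted p of 0.0313. Pdia4, another isomerase of the ER lumen, differed by -0.27 (95% interval -0.71 to 0.17, adjusted p = 0.294), with PMSG array 2, at 0.12, above all control arrays. Without PMSG array 2 the difference was -0.46 (adjusted p = 0.0188).

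Next to the disulfide enzymes stand the chaperone families. Hspa5 (BiP, GRP78), the HSP70 of the ER lumen and the usual reporter of ER stress, had 5.60, 5.66, 5.47 and 5.51 in the control arrays. The PMSG arrays had 5.42, 5.45, 5.34 and 5.39. All PMSG arrays lay below all control arrays, by a small step between the nearest values. The difference was -0.16 (SE 0.0865, 95% interval -0.36 to 0.04), 89.3% of the control signal, and did not pass the test (adjusted p = 0.178). The interval contains neither the loss of Ero1l nor that of Dnajc3.

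Of its 3 J-protein co-chaperones in the set, 2 fell and 1 did not pass the test. Dnajc3 (p58IPK), a J-protein of the lumen that also inhibits PERK, had 1.13, 1.31, 1.09 and 1.35 in the control arrays and 0.17, 0.22, 0.01 and -0.03 in the PMSG arrays. The groups were far apart, and the fall was 1.13 on the log2 scale: -1.13 (SE 0.108, 95% interval -1.38 to -0.88), 45.7% of the control signal (adjusted p = 2.53e-04). Dnajb11 (ERdj3), which binds unfolded chains and hands them to Hspa5, had 1.95, 1.93, 1.76 and 1.99 against 1.25, 1.45, 1.19 and 1.35. It fell to 66.1% of the control signal (difference -0.60, SE 0.0999, adjusted p = 0.00262). Dnajb9 (ERdj4), a J-protein that helps degradation and represses IRE1, had -1.07, -1.20, -1.19 and -1.64 against -1.21, -1.34, -1.43 and -1.08. Its groups overlapped, with control array 4 the lowest of the 8, and the difference was 0.01 (95% interval -0.33 to 0.35, adjusted p = 0.965).

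Manf, a small factor of the lumen that binds Hspa5 and can be secreted, had 2.54, 2.61, 2.34 and 2.55 in the control arrays and 1.88, 1.83, 1.89 and 1.65 in the PMSG arrays. It fell to 61.7% of the control signal (difference -0.70, SE 0.104, adjusted p = 0.00154). Hyou1 (GRP170), a nucleotide exchange factor for Hspa5, had 4.03, 4.13, 4.01 and 4.09 against 4.31, 4.37, 3.87 and 4.20. PMSG array 3 lay below all control arrays and the other PMSG arrays above them, and the difference of 0.12 did not pass the test (95% interval -0.17 to 0.40, adjusted p = 0.474). Sdf2l1, a partner of Dnajb11 in Hspa5 complexes, differed by -0.33 (adjusted p = 0.0867), with PMSG array 3 among the control values. Without PMSG array 3 that difference was -0.41 (adjusted p = 0.0403).

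Hsp90b1 (GRP94), the HSP90 of the ER, had 3.48, 3.65, 3.42 and 3.72 in the control arrays. In the PMSG arrays it had 2.93, 3.38, 3.02 and 2.79. PMSG array 2 came close to the lowest control array without reaching it. The fall was to 68.8% of the control signal (difference -0.54, SE 0.144, adjusted p = 0.0215). The call was lost without control array 2 (adjusted p = 0.0608), control array 4 (0.0627) or PMSG array 1 (0.0562).

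Calr, the soluble lectin chaperone and calcium store of the lumen, had 3.79, 3.89, 3.82 and 3.92 against 3.33, 3.13, 3.33 and 2.96. The control arrays were tightly grouped, and all PMSG arrays lay well below them. The difference was -0.67 (SE 0.110, adjusted p = 0.00248), or 63.1% of the control signal. Canx, the membrane-bound lectin chaperone, had -2.39, -2.31, -2.31 and -2.23 against -2.63, -2.75, -2.50 and -3.26. The groups did not overlap, yet the difference of -0.47 (SE 0.164, 95% interval -0.85 to -0.10) missed the threshold (adjusted p = 0.0553). It passed without PMSG array 3 (-0.57, adjusted p = 0.0342) or without PMSG array 4 (-0.32, adjusted p = 0.0354).

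**Figure D3:**
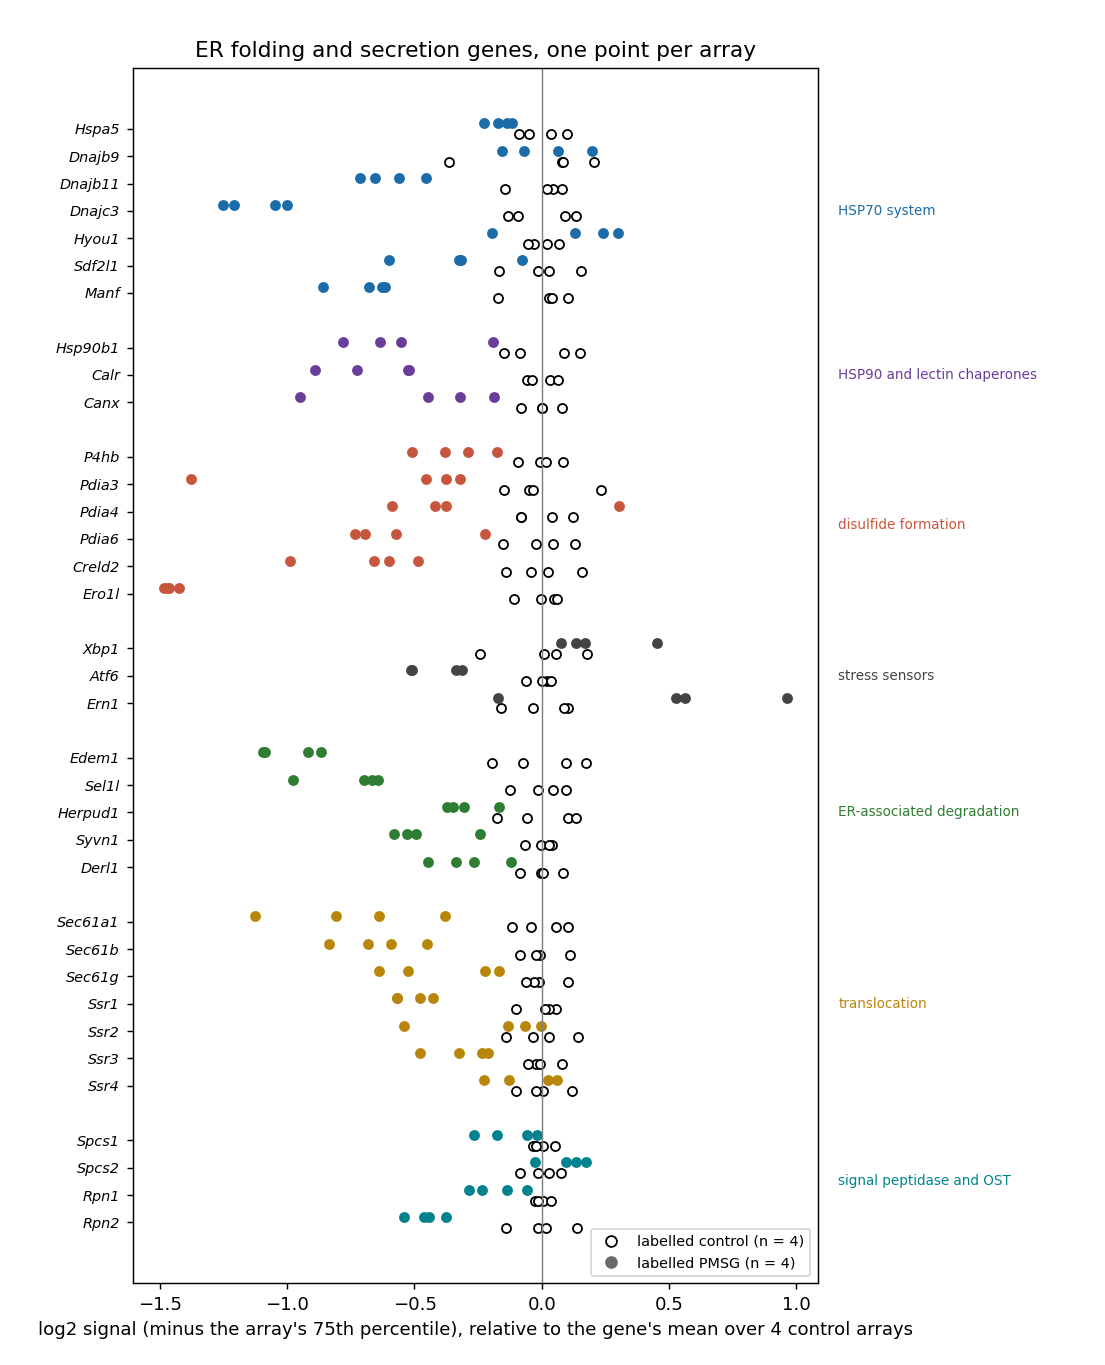
Log2 signal of each ER gene in each of the 8 arrays, shown as the deviation from the mean of the 4 control arrays, with open points for control and coloured points for PMSG arrays and the genes grouped by role. Ero1l, Dnajc3 and Edem1 lie far below the control arrays in all 4 PMSG arrays, and Pdia3 is far lower in PMSG array 4 than in the other arrays.

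Among the genes of ER-associated degradation, Edem1 fell the most. It is a mannosidase-like protein that picks misfolded glycoproteins for disposal, and its probe lies on chromosome 4, from 144380560 to 144380619 of rn4. The control arrays had -0.77, -0.93, -0.68 and -1.05, and the PMSG arrays -1.95, -1.73, -1.95 and -1.78. The groups did not overlap, and the PMSG signal was 50.3% of the control signal (difference -0.99, SE 0.116, 95% interval -1.26 to -0.73, adjusted p = 5.31e-04).

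Sel1l and Syvn1 (Hrd1) form the membrane ubiquitin ligase of this pathway, and both fell. Sel1l, the adaptor, had -2.31, -2.42, -2.53 and -2.36 in the control arrays and -3.05, -3.11, -3.07 and -3.38 in the PMSG arrays (difference -0.75, SE 0.109, adjusted p = 0.00140). PMSG array 4 was lower than the other 3 PMSG arrays, which lay close together. Syvn1, the ligase itself, had 2.46, 2.42, 2.36 and 2.45 against 1.93, 1.84, 1.90 and 2.18, or 72.6% of the control signal (difference -0.46, SE 0.102, adjusted p = 0.00918). Herpud1, the scaffold of that ligase, differed by -0.30 (adjusted p = 0.0586), with PMSG array 2 touching the lowest control value, and of the arrays left out in turn only control array 3 let it pass (-0.36, adjusted p = 0.0458). For Derl1, a membrane component of the exit route, the groups did not overlap, and the difference of -0.29 missed the threshold (adjusted p = 0.0540). Without PMSG array 4 it was -0.35 (adjusted p = 0.0198).

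At the entrance of the ER, all 3 subunits of the Sec61 channel fell. Sec61b had 4.58, 4.46, 4.44 and 4.38 in the control arrays and 4.01, 3.87, 3.78 and 3.63 in the PMSG arrays. The groups were clearly apart, with a difference of -0.64 (SE 0.109, adjusted p = 0.00277). Sec61a1, the pore itself, had -1.87, -1.79, -1.65 and -1.70 against -2.39, -2.56, -2.13 and -2.88, or 59.9% of the control signal (difference -0.74, SE 0.160, adjusted p = 0.00868). Sec61g fell by 0.39 (difference -0.39, SE 0.128, adjusted p = 0.0468), a call that was lost without any 1 control array (adjusted p 0.0836 to 0.115) and without PMSG array 2 (0.108) or PMSG array 4 (0.0641).

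The 4 Ssr genes encode the TRAP complex, which sits beside the channel and helps some signal sequences to enter. Ssr1 had 4.57, 4.55, 4.42 and 4.53 against 4.04, 3.95, 3.95 and 4.09, with no overlap (difference -0.51, SE 0.0869, adjusted p = 0.00281). Ssr3 fell to 80.5% of the control signal (difference -0.31, adjusted p = 0.0351), and this call was lost without any 1 control array (adjusted p 0.0678 to 0.10) and without PMSG array 3 (0.0601). Ssr2 and Ssr4 did not pass the test, with differences of -0.18 (95% interval -0.50 to 0.13, adjusted p = 0.323) and -0.07 (95% interval -0.30 to 0.17, adjusted p = 0.627). Whether the subunits differ from each other was not tested.

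Of the signal peptidase and oligosaccharyltransferase genes, 1 of 4 fell. The peptidase subunits Spcs1 and Spcs2 differed by -0.13 (95% interval -0.34 to 0.08, adjusted p = 0.294) and 0.09 (95% interval -0.11 to 0.30, adjusted p = 0.432). Of the ribophorins, which are subunits of the oligosaccharyltransferase, Rpn2 fell from 3.76, 3.60, 3.48 and 3.64 to 3.08, 3.16, 3.18 and 3.24. That was 72.9% of the control signal (difference -0.46, SE 0.0948, adjusted p = 0.00717). Rpn1 had 6.19, 6.22, 6.16 and 6.17 against 6.05, 6.13, 5.90 and 5.95. Its groups did not overlap, and the difference of -0.18 did not pass the test (95% interval -0.38 to 0.03, adjusted p = 0.153).

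The sensors, with Xbp1 counted among them, had the only positive median of any stage. With 3 genes, this median of 0.21 is the difference of Xbp1 alone, which was not called. Atf6, the membrane-bound transcription factor released by cleavage under stress, had -0.58, -0.57, -0.67 and -0.61 in the control arrays and -0.95, -1.12, -1.11 and -0.92 in the PMSG arrays. It fell to 74.8% of the control signal (difference -0.42, SE 0.0908, adjusted p = 0.00866). Xbp1, the transcription factor made active by IRE1 splicing, had 2.08, 2.33, 2.37 and 2.50 against 2.45, 2.77, 2.39 and 2.49. Its groups overlapped, and the difference of 0.21 did not pass the test (95% interval -0.09 to 0.51, adjusted p = 0.239). The probe's signal does not separate spliced from unspliced Xbp1. Ern1, the gene of IRE1, had -4.85, -5.12, -4.99 and -4.87 against -4.43, -4.39, -4.00 and -5.13. PMSG array 4 was the lowest of the 8, whereas the other 3 PMSG arrays lay above every control array. The difference of 0.47 did not pass the test (95% interval -0.04 to 0.98, adjusted p = 0.135), and without PMSG array 4 it was 0.68 with an adjusted p of 0.00757. The Ern1 probe was dim, with means of -4.96 in the control arrays and -4.49 in the PMSG arrays. Over the 18 alternatives tried, its difference ranged from 0.22 to 0.68 and passed only with array weights or without PMSG array 4.

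For the 6 genes with a second probe, the probes were compared within the gene. Both probes fell for Ssr1 and Sec61g, by 0.51 and 1.34 for Ssr1 (second probe, difference -1.34, adjusted p = 3.69e-04) and by 0.39 and 0.50 for Sec61g (second probe, difference -0.50, adjusted p = 0.0272). Neither probe passed for Spcs2 (second probe, 0.19, adjusted p = 0.112). The probes disagreed on the call for the other 3 genes. The second probe of Sdf2l1 fell (difference -0.58, adjusted p = 0.0233) where the first did not pass. The second probe of Atf6 did not pass (-0.20, adjusted p = 0.466), nor did that of Sel1l (-0.80, adjusted p = 0.134), which was above background on 7 of 8 arrays. Whether the probes read different transcripts of a gene was not tested.

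Of the 19 genes that fell, 14 kept the call under all 18 alternatives tried (Dnajb11, Dnajc3, Manf, Calr, Pdia6, Creld2, Ero1l, Edem1, Sel1l, Syvn1, Sec61a1, Sec61b, Ssr1 and Rpn2). The other 5 (Hsp90b1, P4hb, Atf6, Sec61g and Ssr3) lost it under at least 1. Leaving out 1 array at a time gave 15 to 22 called genes, all of them lower apart from Ern1, which was called higher without PMSG array 4.

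The neighbours of these genes in the pathway were read from 8 lists of 127 other genes. Of these, 117 had a probe by name and 115 were tested. Lower calls were made for 57 and higher calls for 8, or 56.5% of those tested, and the median difference was -0.36. Over all tested probes 34.2% were called, 16.6% lower and 17.6% higher. In vesicle coats and cargo receptors, which carry folded proteins to the Golgi, 15 of 23 fell and 0 rose (median -0.44). In the oligosaccharyltransferase and glycan synthesis list 10 of 20 fell and 0 rose (median -0.38). Among the glucosidases and the glycoprotein folding check 5 of 6 fell and 0 rose (median -0.89). This list also holds Lman1 (-0.93) and Mcfd2 (-0.89), which belong to cargo transport rather than to the folding check, and both fell. Higher calls came from the remaining lists: 2 of 15 for signal recognition and translocation partners (7 fell), 2 of 7 for other disulfide enzymes (3 fell), 2 of 15 for collagen folding enzymes (7 fell), 1 of 16 for the rest of ER-associated degradation (7 fell) and 1 of 13 for the sensors and the PERK branch (3 fell). Apart from the other disulfide enzymes, each of these lists had a smaller share called higher than all tested probes. The list of sensors and the PERK branch was called in 30.8%, below the share of all tested probes.

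The genes named here are those with the largest called differences of each list, with P4ha3 and the other PERK-branch genes added beside them. In the vesicle list, Sec24a, a cargo-binding COPII coat protein, had -1.53, -1.81, -1.71 and -1.67 in the control arrays and -2.92, -2.95, -3.27 and -2.77 in the PMSG arrays, or 40.8% of the control signal (difference -1.29, adjusted p = 2.87e-04). Kdelr3, which returns chaperones from the Golgi, differed by -1.01 (adjusted p = 0.00476). Among the glycoprotein genes, Uggt1, which re-tags unfolded glycoproteins for calnexin, had -4.15, -4.19, -4.25 and -4.09 against -5.37, -5.33, -5.06 and -5.28 (difference -1.09, adjusted p = 2.23e-04). The Uggt1 probe was dim, with a mean of -5.26 in the PMSG arrays, and was above background on all 8 arrays. The cargo lectin Lman1 fell too (-0.93, adjusted p = 5.16e-04), as did Alg2, a mannosyltransferase of glycan assembly (-1.02, adjusted p = 0.00222), and Stt3b, a catalytic subunit of the oligosaccharyltransferase (-0.82, adjusted p = 6.12e-04).

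Among the collagen folding genes, 2 of the 3 catalytic subunits that pair with P4hb fell. P4ha2 had 2.28, 2.15, 2.19 and 2.14 against 0.74, 1.04, 1.05 and 1.17 (difference -1.19, adjusted p = 2.48e-04), and P4ha1 differed by -0.72 (adjusted p = 0.00745). P4ha3 differed by 0.66 and did not pass the test (adjusted p = 0.0529). The prolyl isomerases Fkbp9 and Fkbp7 rose by 0.34 (adjusted p = 0.0449) and 0.31 (adjusted p = 0.0374). In the translocation list Srprb, a subunit of the signal recognition particle receptor, and Sec61a2 fell (-0.84, adjusted p = 6.89e-04, and -0.77, adjusted p = 0.00300). Sil1, an exchange factor for Hspa5, and Sec63, a J-protein of the channel, rose by 0.66 (adjusted p = 0.00717) and 0.45 (adjusted p = 0.0413).

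Derl3, a derlin of the degradation pathway like Derl1, rose. Its log2 signals were 0.12, 0.39, -0.06 and 0.53 in the control arrays and 1.69, 1.71, 1.64 and 1.62 in the PMSG arrays, or 267% of the control signal (difference 1.42, adjusted p = 2.61e-04). Vcp, the ATPase that pulls proteins out of the ER, and its cofactor Nploc4 fell (-0.90, adjusted p = 2.47e-04, and -0.59, adjusted p = 0.00222). Of the disulfide enzymes outside the set, Qsox1, a sulfhydryl oxidase, rose by 0.93 (adjusted p = 8.63e-04), and Tmx1 and Selm fell (-0.66, adjusted p = 0.00546, and -0.61, adjusted p = 0.0151). Pdia2 rose by 1.05 (adjusted p = 0.0355) and was above background on only 3 of the 4 control arrays.

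In the sensor list, Ddit3 (CHOP), a transcription factor of prolonged stress downstream of PERK, had 1.28, 0.90, 1.32 and 0.77 in the control arrays and 2.25, 1.96, 2.02 and 2.08 in the PMSG arrays. It rose to 201% of the control signal (difference 1.01, adjusted p = 0.00147). The other genes of the PERK branch in the list did not rise by the test. Eif2ak3 (0.21), Atf4 (-0.16), Ppp1r15a (0.01), Ppp1r15b (-0.45) and Trib3 (-0.15) were not called. Nfe2l2 fell (-0.36, limma, adjusted p = 0.023). Creb3l1, an ER-bound transcription factor of secretory cells, had 2.76, 2.63, 2.75 and 2.70 against 1.02, 1.01, 1.36 and 1.39, or 35.0% of the control signal (difference -1.51, adjusted p = 1.20e-04). Its relative Creb3 differed by -0.58 (adjusted p = 0.00205).

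**Figure D4:**
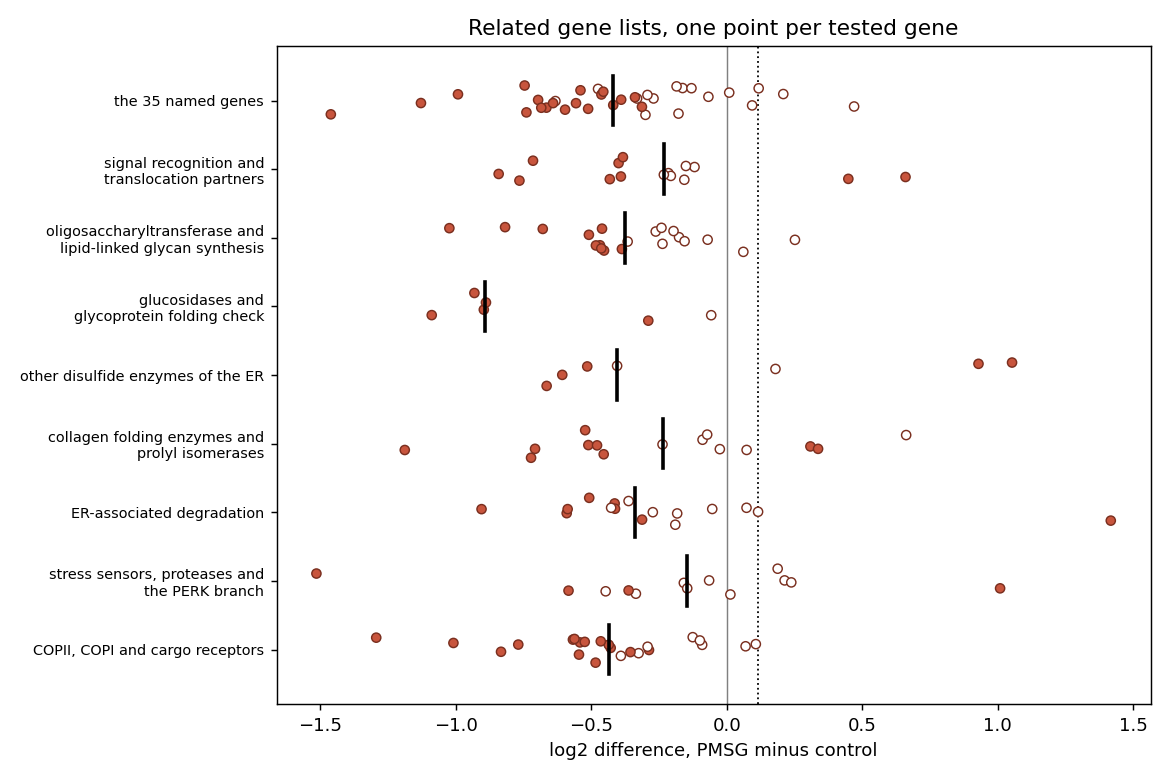
Log2 differences (PMSG minus control) of the 35 ER genes and of the 115 tested genes of the 8 related lists, 1 point per gene (spread vertically at random), filled where called, with a bar at each list's median and a dotted line at the median of all probes. The vesicle, glycan and glucosidase lists hold no gene called higher. The glucosidase list, which includes the cargo transport genes Lman1 and Mcfd2, has the lowest median, -0.89.

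Markers of several cell types moved with these results. All 47 marker genes with a probe, of 49 listed, were tested. The 4 markers of steroidogenic or luteinised cells all fell, and their summed level, given as log2, was 7.20 to 7.40 in the control arrays and 3.88 to 5.02 in the PMSG arrays. For the endothelium 4 of 6 fell (4.32 to 4.55 against 3.95 to 4.10). All 5 oocyte markers rose (1.39 to 2.26 against 3.26 to 4.34), as did all 4 of oviduct epithelium (0.69 to 1.52 against 2.71 to 3.65) and 4 of 5 of macrophages and leukocytes (2.79 to 3.12 against 3.45 to 3.62). Of the oviduct markers, Dnah5 was above background on only 2 of the 4 control arrays and Muc1 on only 3. For plasma and B cells, which are rich in ER, 1 of 4 fell and 2 rose, and the sum was 4.65 to 4.89 against 3.74 to 3.93. That sum follows the probe of Sdc1, which fell (difference -0.98, adjusted p = 2.56e-04), while Mzb1 (1.21, adjusted p = 0.0220) and Prdm1 (0.67, adjusted p = 0.0409) rose. The Mzb1 probe was above background on only 3 of the 4 control arrays. Granulosa cell markers had 1 of 5 lower and 1 higher, with overlapping sums (6.30 to 7.09 against 6.16 to 6.61), and theca, fibroblast and adipocyte sums overlapped as well. Within these lists 1 of 2 theca markers rose (Insl3, difference 2.60, adjusted p = 3.47e-04), as did 2 of 5 of fibroblasts and smooth muscle (Dcn, 0.70, adjusted p = 0.0151, and Lum, 0.58, adjusted p = 0.0252). For red blood cells 1 of 3 fell (2.26 to 3.79 against 1.09 to 1.84). The part of these shifts in the lower signals of the ER genes was not tested.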

How the data were processed

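Gene expression was measured in 8 rat ovary samples, 4 labelled PMSG and 4 labelled control, from 500 ng of total RNA each, on one-colour Agilent arrays. Spot intensity values (processed, background-subtracted signals) are those deposited, made with Feature Extraction 11.5.1.1 on probe positions of build rn4, per the file headers. A series table of log2 values was deposited too, and its method is not given in the sources used here. Each of its 8 columns matched its own array best (lowest correlation 0.998), with column medians of -3.21 to -2.82 and a median difference of 0.0101 from the scaling used here, and it served as an alternative.

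Outlier spots and control spots were left out and spots of a probe averaged. The log2 intensity had the array's 75th percentile subtracted. Probes well above background on at least 4 of 8 arrays were tested, 25303 of 30350, with limma 3.58.1 in R 4.3.3 (Benjamini-Hochberg, threshold 0.05). The code was tested on simulated data. Named genes are all members and, in each related list, up to 2 called genes per direction with the largest difference. P4ha3 and the other PERK-branch genes were named beside them. The members and lists were chosen with earlier results of these data known. Whether a probe lies in a coding exon or UTR was not determined, and protein sequences were not used here.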

Additional observations from a re-analysis of the deposited data

Results flagged for a closer look

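In 2 of the 70 sets of 4 arrays examined (35 genes in each group), the lowest array stood apart from the rest by Dixon's criterion, which chance alone meets in about 1 of 20 such sets, or 3.5 of these 70. Pdia3 in PMSG array 4 was 0.01, against 0.93 to 1.06 in the other PMSG arrays, and this gap took up 0.875 of the group's range. Pdia3 was not called with that array and was called lower without it. Sel1l in PMSG array 4 was -3.38, against -3.11 to -3.05, a gap of 0.839 of the range, and Sel1l was called lower with the array and without it.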

How the results depend on the processing

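The count of called genes in the set was 19 of 35 and kept its direction under the 10 alternatives that keep all arrays, with 16 to 24 called, except that array weights added Ern1 as higher. Leaving out 1 array gave 15 to 22. With 1 array left out, 6552 probes (control array 4 omitted) to 11382 (PMSG array 4 omitted) were called, and 51 to 67 of the related genes, against 65. The median difference of the set, -0.42, was -0.35 with normexp background correction, -0.30 with quantile normalization and -0.59 with median centring, and -0.44 to -0.38 with 1 array left out. Relative to the median of all probes it was -0.53, -0.47, -0.32 and -0.53 for the main scaling and these 3. Of all called probes 51.4% were higher, but 34.5% with median centring. Dnajb9, which was never called, changed sign to -0.0207 (quantile), -0.158 (median centring) and -0.0204 (array weights), and ranged from -0.112 (without control array 4) to 0.0776 with 1 array left out, negative also without PMSG array 1 (-0.0090) and PMSG array 4 (-0.0525). Hyou1 and Spcs2, also not called, became -0.0495 and -0.0737 with median centring. Calls were lost by Hsp90b1, P4hb and Ssr3 with quantile normalization and by Atf6 with the mean of its probes (-0.31), by Sec61g with the deposited values (adjusted p = 0.0501 in limma), and by Sec61g and Ssr3 without the filter on dim probes (0.0626 and 0.0504). With the slide row as a block P4hb, Sec61g and Ssr3 lost theirs (0.0524, 0.0683 and 0.0509). The causes were not tested. The labels do not say whether same-numbered arrays were paired. The deviations of same-numbered arrays correlated at 0.0444, 0.0361, 0.183 and -0.0192 for replicates 1 to 4. Such values cannot exclude a pairing with a small effect. With the replicate number as a block 16 of the 35 genes, 50 related genes and 7346 probes were called. P4hb, Sec61g and Ssr3 were then not called (adjusted p = 0.0824, 0.0653 and 0.0730 in limma). The number of arrays limits the precision.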
